A study of Mus musculus with 9 samples.

Results

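The genes described here are 25 protein-coding genes of differentiating C2C12 cells. Their day 3 level was at least 1.5 times that of day 0 and of day 5, in the control and in both cryptochrome knockdowns, and above a minimum given below. C2C12 is an established mouse myoblast line that leaves the cell cycle and fuses into multinucleated myotubes when serum is lowered. Counts of polyA RNA came from 3 genotypes, a control, a Cry1 knockdown and a Cry2 knockdown. Each was collected at day 0, the day on which growth medium with fetal bovine serum was replaced, and at days 3 and 5 in medium with horse serum and an insulin, transferrin and selenium supplement. There is 1 library for each genotype and day, 9 in all. The sample labels do not say whether the days of a genotype share a culture. How the knockdowns were made, what the control received, whether a knockdown is 1 clone or a pool, and whether day 0 cells were taken before or after the medium change are not given in the sources used here.

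A gene was included when its day 3 level was at least 5 CPM (the count scaled to a common library total), at least 1.5 times its day 0 level and at least 1.5 times its day 5 level, in each of the 3 genotypes. Of 21697 protein-coding genes in the files, 9753 reached 5 CPM at day 3 in all 3 genotypes. By any margin, 1139 of these (11.7%) were highest at day 3 in all 3 genotypes, and 25 (0.256%) met the whole rule. The genes were thus chosen by their day 3 levels and day 3 ratios, which are given below as descriptions, with no test. "Peak" means the highest of the 3 sampled days, since no day between them was sampled.

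Myogenic differentiation runs through an ordered programme. Myoblasts first arrest and express myogenin, then fuse and fill with contractile proteins, whose messages stay high in the myotube. A transient message is one that the cell makes during the passage and then gives up. Among the processes that take place in this window are cell cycle exit under CDK inhibitors, membrane remodelling for fusion, and a change in energy supply that involves the phosphocreatine system. Cholesterol, a membrane lipid, is made from acetyl-CoA through the mevalonate pathway, whose genes are driven together by the sterol-sensing SREBP factors, acting with the CCAAT-binding factor NF-Y.

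The libraries held 4731020 to 6412279 counts. Where a library had no count, up to 3 counts are allowed for, which is 0.468 to 0.634 CPM. These floors and all intervals below are at 95% and cover counting error only. Cry1 had its lowest levels in the Cry1 knockdown (6.61 to 8.75 CPM, against 15.5 to 21.8 in the control), and Cry2 in the Cry2 knockdown (7.74 to 15.7 CPM, against 20.4 to 46.6). The 4 myotube markers fixed for the check (Acta1, Ckm, Myh3 and Mylpf) summed to 193 to 801 CPM at day 0, 11926 to 18052 at day 3 and 15921 to 17507 at day 5. Endothelial, adipocyte, blood and neural markers stayed under 5 CPM in every library, with Adipoq and Adgre1 at 0 throughout. Of the epithelial markers, Cdh1 alone passed 5 CPM, at day 5, and Krt18 was at 0. The 4 fibroblast markers summed to 29.2 to 47.0 CPM at day 0, 182 to 511 at day 3 and 338 to 814 at day 5, most of it Dcn. That sum was higher at day 5 than at day 3 in every genotype, while Pdgfra alone was lower at day 3 than at day 0 (23.5, 9.73 and 18.2 CPM in the control). The 4 myoblast markers (Myf5, Myod1, Pax7 and Cdh15) summed to 613, 768 and 421 CPM at days 0, 3 and 5 in the control, the only genotype where day 3 was highest. The Cry1 knockdown had 790.2, 691 and 510.2, and the Cry2 knockdown 657, 647 and 455. Any part of the cell mix in the day 3 peak was not tested. In bulk RNA, fewer cells of a type and less RNA per cell cannot be told apart.

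Upstream sequence is shown for 4 of the genes, because 2 of them belong to the sterol pathway, the best represented group, and the other two are muscle-expressed genes with the motifs of muscle factors. Each line gives the 120 bases before the RefSeq start site (GRCm38.p6, the mm10 assembly), 5′ to 3′ on the gene's strand. Capitals mark CCAAT in either orientation in Mvd, Nsdhl and Ckb, the MEF2 motif, with a TATAAA inside it, in Ckb, and the CArG box and CACGTG in Asb2.
Mvd, chr8:122443423-122443542, minus strand: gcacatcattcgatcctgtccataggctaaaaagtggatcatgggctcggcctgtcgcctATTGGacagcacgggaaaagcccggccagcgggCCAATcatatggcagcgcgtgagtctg
Nsdhl, chrX:72918401-72918520, plus strand: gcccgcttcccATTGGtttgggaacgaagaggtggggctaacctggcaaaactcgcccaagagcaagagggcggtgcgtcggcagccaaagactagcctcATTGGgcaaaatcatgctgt
Ckb, chr12:111672339-111672458, minus strand: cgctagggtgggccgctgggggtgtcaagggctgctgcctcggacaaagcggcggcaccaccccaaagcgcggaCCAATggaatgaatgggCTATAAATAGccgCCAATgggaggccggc
Asb2, chr12:103356002-103356121, minus strand: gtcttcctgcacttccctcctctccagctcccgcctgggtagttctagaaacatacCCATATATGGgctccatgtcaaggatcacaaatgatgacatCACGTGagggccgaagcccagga

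The peak took a range of shapes. Cdkn1c stood apart, with a smallest day 3 ratio of 6.88 among its 6 (3 genotypes, each against day 0 and day 5). Ckb followed at 2.44 and Btbd17 at 2.06, and the other 22 lay between 1.52 and 1.92. In the control, the median ratio of day 3 to day 0 over the 25 genes was 3.08, and that of day 3 to day 5 was 2.24. The same medians were 3.25 and 1.99 after Cry1 knockdown and 2.62 and 1.95 after Cry2 knockdown. Over the 9753 genes at 5 CPM or more, the medians lay from 0.932 to 0.944 against day 0 and from 1.04 to 1.06 against day 5. What happened after day 3 separated the genes into kinds. In all 3 genotypes, 9 genes were still at least 1.5 times their day 0 level at day 5 (Asb2, Gldc, Nmrk2, Fndc5, R3hdml, 1500015O10Rik, Dbh, Apod and Ctrb1), so that they had partly held the rise. Another 8 genes were back within 1.5-fold of day 0 in every genotype (Nsdhl, Fdft1, Rab38, Ckb, Gatm, Adgrg1, Arrdc3 and Tmsb10). The remaining 8 changed class between genotypes.

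**Figure D1:**
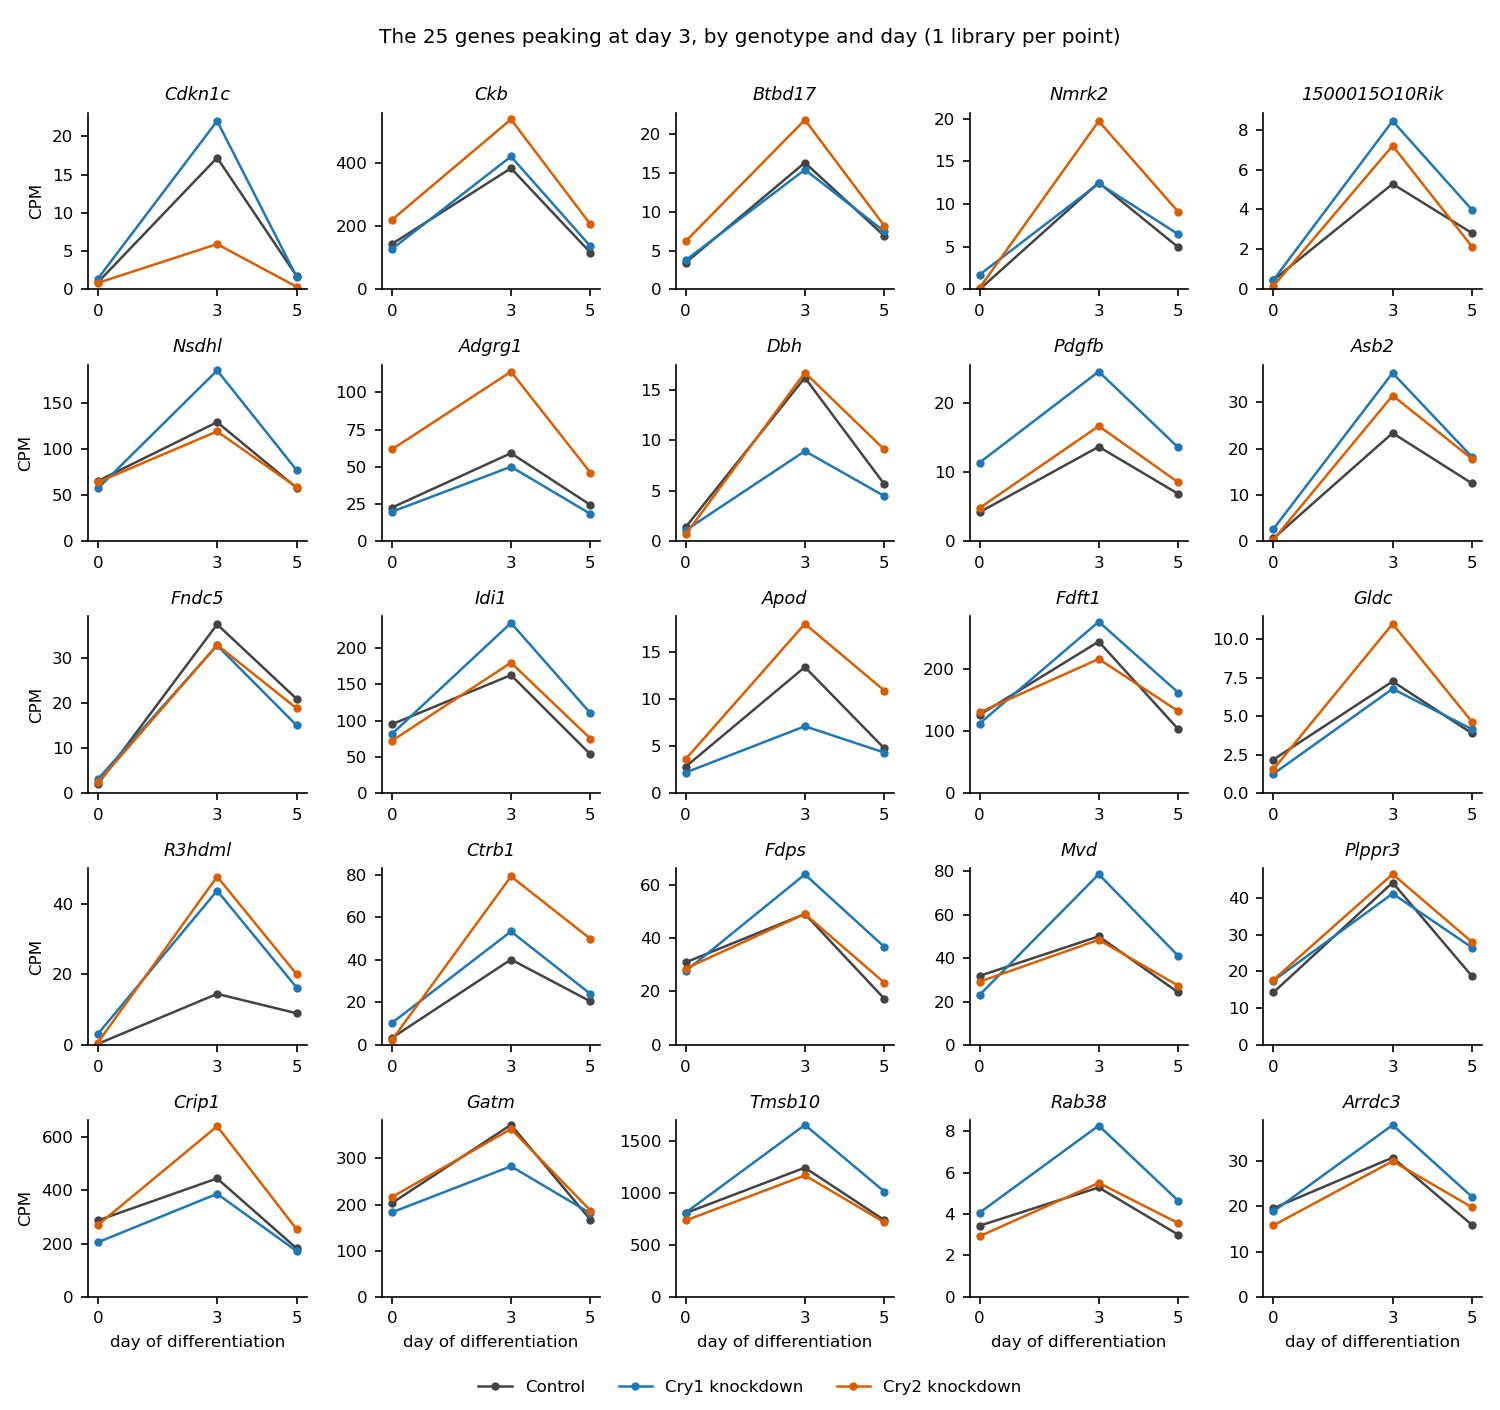
Level of each of the 25 genes in CPM (vertical axis, from 0) at days 0, 3 and 5 of differentiation (horizontal axis) in the control, the Cry1 knockdown and the Cry2 knockdown, with 1 library per point and genes ordered by their smallest day 3 ratio. Every line is highest at day 3, which the rule requires, while the order of the genotypes differs from gene to gene, with Adgrg1 highest in the Cry2 knockdown and Pdgfb highest in the Cry1 knockdown on every day.

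Cell cycle exit was represented by Cdkn1c alone (ENSMUSG00000037664, chromosome 7, 143458339 to 143461050, minus strand, mm10), the imprinted gene of the CDK inhibitor p57, which takes part in the arrest of myoblasts. It had 0.936, 17.2 and 1.76 CPM at days 0, 3 and 5 in the control. The Cry1 knockdown gave 1.41, 22.0 and 1.66 CPM, and the Cry2 knockdown 0.860, 5.92 and 0.356 CPM. The message was thus near its floor on both sides of day 3, and at day 3 the Cry2 knockdown had the least of it. The day 3 level was 18.3 times that of day 0 in the control (interval 8.14 to 51.1), 15.6 times in the Cry1 knockdown (8 to 35) and 6.88 times in the Cry2 knockdown (2.62 to 22.8). Against day 5 the ratios were 9.72 (5.08 to 20.9), 13.3 (6.99 to 28.3) and 16.6 (4.19 to 144), the last resting on 2 counts at day 5. Over the 3 days, the Cry2 knockdown stood at -1.41 ± 0.33 on the log2 scale against the control (SE, n = 3 days, adjusted p = 0.170, edgeR), which did not pass the test, and was lower on 3 of 3 days. Exons of Gm44732 overlap 30.7% of the Cdkn1c exon bases, and that gene had 0 counts in every library. The libraries carry no strand marking, so this 0 does not show that Gm44732 was silent.

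Its paralog Cdkn1a, which encodes p21, held its level instead, with 341, 1506 and 1485 CPM in the control. Of the 21 genes at 5 CPM or more at day 3 in the list of CDK inhibitors and cell cycle exit, Cdkn1c was the only one to meet the rule (4.76%, beside 0.256% of all genes). In every genotype, 3 were at least 1.5 times day 0 at day 3 and within 1.5-fold of day 3 at day 5 (14.3%, beside 3.91%). Highest at day 3 in all 3 genotypes were 6 (28.6%, beside 11.7%). Of 37 DNA replication and mitosis genes, 0 met the rule, which is near the 0.256% of all genes, and 0 were highest at day 3 in all 3 genotypes, beside 11.7% of all genes.

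The sterol pathway supplied 5 of the 25 genes. Of 28 genes at 5 CPM or more in a list of 29 for cholesterol and fatty acid synthesis, 17.9% met the rule, beside 0.256% of all genes at that level, and 12 (42.9%, beside 11.7%) were highest at day 3 in all 3 genotypes. The 5 were Mvd, Idi1, Fdps and Fdft1, which catalyse consecutive steps from mevalonate diphosphate to squalene, and Nsdhl, which acts after the sterol ring has closed. The list was one of 23, put together with earlier results of these data known.

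Mvd (ENSMUSG00000006517, chromosome 8, 122433601 to 122443422, minus strand) encodes mevalonate diphosphate decarboxylase, which makes isopentenyl diphosphate. It had 31.8, 50 and 24.2 CPM in control cells, 23.0, 78.6 and 41.0 after Cry1 knockdown, and 29.1, 48.4 and 27.3 after Cry2 knockdown. The Cry1 knockdown was the lowest at day 0 and the highest at days 3 and 5. Its ratio of day 3 to day 0 was 3.42 (2.84 to 4.14), beside 1.57 (1.31 to 1.89) in the control and 1.67 (1.36 to 2.04) in the Cry2 knockdown.

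Idi1 (ENSMUSG00000058258, chromosome 13, 8885501 to 8892451, plus strand) encodes the isomerase that follows. Its levels were 95, 163 and 53.5 CPM in control cells, 81.5, 235 and 110.3 after Cry1 knockdown, and 72.1, 180.1 and 75.2 after Cry2 knockdown. At day 5 the control had gone below its starting level, to 0.563 of day 0, while the Cry1 knockdown was at 1.35 times day 0. Processed copies of Idi1 share 50-base words with it, over 30.5% of its longest transcript together with the overlapping Gm48574.

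Fdps (ENSMUSG00000059743, chromosome 3, 89093588 to 89101959, minus strand), farnesyl diphosphate synthase, had 30.9, 49.0 and 17.3 CPM in the control. It had 27.6, 63.8 and 36.7 after Cry1 knockdown and 28.6, 49.0 and 23.3 after Cry2 knockdown. Day 3 levels of the control and the Cry2 knockdown were thus equal to 3 digits. Exons of Gm43738, which had 0 counts in every library, overlap 26.7% of the Fdps exon bases. As with Gm44732, this 0 does not show that Gm43738 was silent. Fdft1 (ENSMUSG00000021273, chromosome 14, 63145150 to 63179578, minus strand), squalene synthase, had 126, 244 and 103 CPM in control cells, 112, 276 and 162 after Cry1 knockdown, and 130.0, 216 and 132 after Cry2 knockdown. Its exons overlap those of Ctsb over 18.3% of their bases, but Ctsb, at 601 to 1007 CPM, was not highest at day 3 in the control or the Cry1 knockdown. Nsdhl (ENSMUSG00000031349, chromosome X, 72918557 to 72958514, plus strand), a sterol dehydrogenase of a demethylation step, had 65.3, 129 and 57.9 CPM in the control. It had 57.3, 185 and 77.1 after Cry1 knockdown and 64.0, 119 and 58.6 after Cry2 knockdown. As with the other 4, the highest level of all 9 libraries was day 3 of the Cry1 knockdown.

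In these 5 genes, the day 3 to day 0 ratio was larger in the Cry1 knockdown (2.31 to 3.42) than in the control (1.57 to 1.98). At day 5 all 5 were under their day 0 level in the control (0.560 to 0.886) and over it in the Cry1 knockdown (1.33 to 1.78). These ratios were not themselves tested between genotypes. The fitted day 3 excess (day 3 against the mean of days 0 and 5) of the Cry1 knockdown differed from that of the control by -0.10 to 0.45 on the log2 scale, with adjusted p from 0.968 to 0.995 (edgeR), so none passed. Over the 3 days the Cry1 knockdown stood 0.22 to 0.44 above the control (adjusted p from 0.251 to 0.453, with Mvd called only in the fit without day 0 of that knockdown), and the Cry2 knockdown from -0.05 to 0.07 (adjusted p from 0.912 to 0.986).

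Most other steps of the pathway were also highest at day 3 in at least the Cry1 knockdown but missed the ratio of 1.5 somewhere. Cyp51 and Msmo1 met the rule in 2 genotypes each. Cyp51, lanosterol demethylase, missed it only in the control, where day 3 was 1.33 times day 0, and Msmo1 missed it only in the Cry2 knockdown, at 1.44 times day 5. Hmgcs1 (281, 399 and 172 CPM in the control) was highest at day 3 in all 3 genotypes. Dhcr7, a last step, broke from the others and was highest at day 5 in each genotype (41.3, 79.2 and 142 CPM in the control). Among the 24 listed genes that did not meet the rule, the median ratio of day 3 to day 5 was 1.76 in the control, 1.54 in the Cry1 knockdown and 1.4 in the Cry2 knockdown. Over the 9753 genes it was 1.04, 1.04 and 1.06. The median of the 24 against day 0 was 1.12, 1.44 and 0.943, beside 0.932, 0.935 and 0.944. In the control and the Cry2 knockdown, the lower level at day 5 was thus more marked than a rise to day 3. In the Cry1 knockdown both were of similar size. The fatty acid genes of the list were mixed. Fasn and Acaca were not highest at day 3 in the knockdowns, and Elovl6 and Fads1 were highest at day 0 in every genotype. Scd1, a fatty acid desaturase gene, was highest at day 3 in all 3 genotypes (850.4, 2072 and 1342 CPM in the control). Scd2 was highest at day 3 in the control and the Cry1 knockdown only. Over the 3 days, Scd1 passed as lower in the Cry1 knockdown than in the control (-0.68 ± 0.13, n = 3 days, adjusted p = 0.0366, edgeR). The median log2 difference of the 29 genes was 0.27 in the Cry1 knockdown and -0.03 in the Cry2 knockdown, beside 0.01 and -0.00 over all genes tested.

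**Figure D2:**
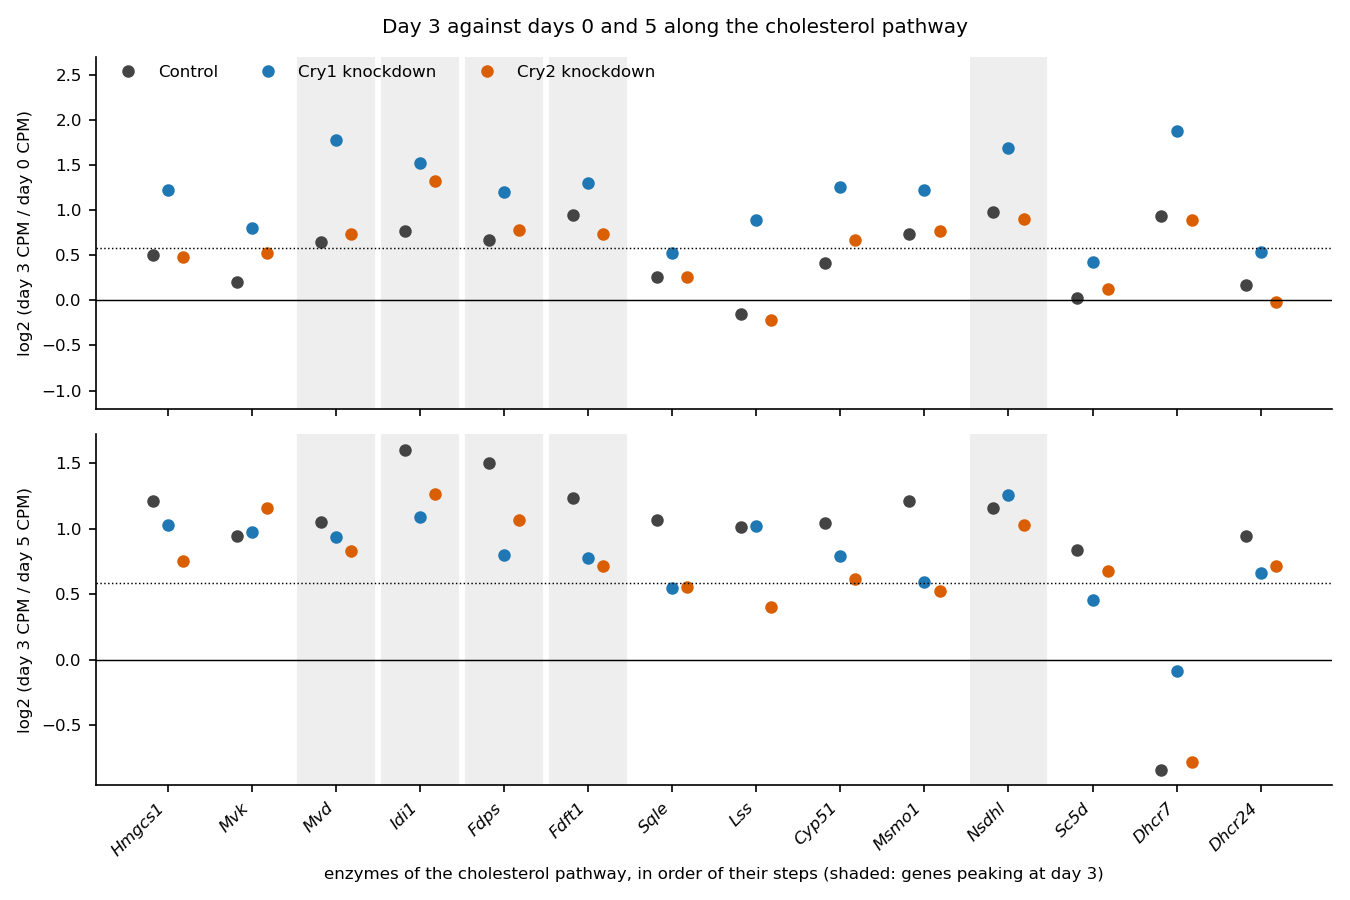
Log2 ratio of day 3 to day 0 CPM (upper panel) and of day 3 to day 5 CPM (lower panel) for 14 enzymes of the cholesterol pathway in the order of their steps, with 1 point per genotype, the dotted line at the 1.5-fold of the rule and shading on the 5 genes that met it. The Cry1 knockdown points lie highest against day 0 at every enzyme drawn, and Dhcr7 is the only enzyme below 0 in all 3 genotypes against day 5.

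In the 250 bases upstream of their RefSeq starts, CCAAT in either orientation occurred 2 times each in Mvd and Nsdhl, as printed above, and Idi1 also held 2 copies, 45 to 41 and 14 to 10 bases before its start. RefSeq promoters were matched by symbol for 19 of the 25 genes, 4 of them with more than 1 start. None was matched for Cdkn1c, Pdgfb, 1500015O10Rik, Rab38 and the sterol genes Fdft1 and Fdps. CCAAT was found in 11 of the 19 (57.9%), beside 40.5% of 7735 other genes at 5 CPM or more at day 3. Of these 11, only Idi1, Mvd and Nsdhl were sterol genes. The others were Arrdc3, Btbd17, Ckb, Ctrb1, Dbh, Gatm, Gldc and R3hdml. The sterol response element TCACNCCAC was found in 0 of the 19, beside 1.23%. That 0 covers only Mvd, Idi1 and Nsdhl of the sterol genes among the 25. Of 15 other genes of the sterol list with a matched promoter, 11 held CCAAT and 1 held TCACNCCAC. Both of these motifs were chosen after the genes were known. Of the other motifs searched on both strands, GGGCGG was in 10 of 19 (52.6%, beside 67.8%) and the general E-box CANNTG in 13 (68.4%, beside 59.9%). CANNTG takes in the E-boxes CAGCTG (2 of 19, 10.5%, beside 14.2%) and, for the clock factors, CACGTG (1 of 19, 5.26%, beside 10.5%). Motifs found in 1 of the 19 (5.26%) were the AP-1 motif TGANTCA (beside 5.18%), the ATF4 type TGATGNAA (beside 2.31%) and the nuclear receptor motif AGGTCA (beside 12.4%). Those in 2 (10.5%) were the TEAD motif CATTCC (beside 12.4%), the TATA box motif TATAAA (beside 7.37%) and the Notch-effector motif GTGGGAA (beside 6.26%). The PAR bZIP motif TTATGTAA was in 0 (beside 0.465%). A match describes letters and not a bound site.

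Ckb and Gatm belong to the creatine system, which buffers ATP in muscle. Ckb (ENSMUSG00000001270, chromosome 12, 111669361 to 111672338, minus strand) encodes the brain-type cytosolic creatine kinase, which is replaced by the muscle form Ckm as muscle matures. It had 143, 382 and 116 CPM in control cells, 127, 419 and 136 after Cry1 knockdown, and 219, 536 and 205 after Cry2 knockdown. Day 5 was close to day 0 in each genotype, at 0.808 to 1.08 times. Ckm had 4.83, 213 and 243 CPM in control cells, 14.1, 408 and 329.7 after Cry1 knockdown, and 4.30, 219 and 245 after Cry2 knockdown. It was thus highest at day 5 in the control and the Cry2 knockdown and at day 3 in the Cry1 knockdown, and at day 5 it was still 23.5 to 57 times its day 0 level. The Cry2 knockdown was above the control in Ckb on 3 of 3 days, by 0.64 ± 0.10 on the log2 scale (n = 3 days, adjusted p = 0.0817, edgeR), which missed the threshold. The Ckb promoter printed above was the only one of the 19 with the MEF2 motif, which 3.27% of the other genes had. Gm12892, an annotated processed pseudogene that shares 50-base words with Ckb, also met the day 3 ratios (14.3, 31.8 and 11.3 CPM in the control), and reads of the pair may have been split in counting.

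Gatm (ENSMUSG00000027199, chromosome 2, 122594467 to 122611303, minus strand) encodes the amidinotransferase of the first step of creatine synthesis. It had 203, 373 and 167 CPM in control cells, 183, 283 and 181 after Cry1 knockdown, and 216, 364 and 187 after Cry2 knockdown. Day 3 stood out least in the Cry1 knockdown, where the fitted day 3 excess differed from that of the control by -0.42 ± 0.17 on the log2 scale (unadjusted p = 0.0441, adjusted p = 0.902, edgeR), which did not pass.

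Nmrk2 (ENSMUSG00000004939, chromosome 10, 81198170 to 81202051, minus strand), a muscle nicotinamide riboside kinase of NAD synthesis, had 0, 12.5 and 4.94 CPM in the control. The Cry1 knockdown had 1.72, 12.4 and 6.47, and the Cry2 knockdown 0.172, 19.7 and 9.09. In the control, day 3 was 26.8 times the floor of 3 counts at day 0, and at least 21.3-fold higher than day 0 by the lower bound of the exact interval, which also takes in the error of the day 3 count. It was 7.22 times day 0 in the Cry1 knockdown (3.81 to 15.1). The Cry2 knockdown had 1 count at day 0, so that its ratio of 114 has an interval of 20 to 4562. Atcayos overlaps 14.6% of its exon bases, but was highest at day 5 in each genotype (1.81 CPM at day 3 and 7.24 at day 5 in the control). Gldc (ENSMUSG00000024827, chromosome 19, 30098447 to 30175429, minus strand), glycine decarboxylase, was scarce, with 7.26, 6.78 and 11 CPM at day 3 in the control, the Cry1 knockdown and the Cry2 knockdown. Its ratio to day 5 in the Cry1 knockdown was 1.64 with an interval of 0.971 to 2.81, so counting error alone spans no difference there.

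Among the ligands, Pdgfb (ENSMUSG00000000489, chromosome 15, 79995874 to 80014977, minus strand), the B chain of platelet-derived growth factor, had 4.21, 13.7 and 6.88 CPM in the control. The Cry1 knockdown had 11.4, 24.6 and 13.6 and the Cry2 knockdown 4.82, 16.7 and 8.55. The Cry1 knockdown was the highest on every day, and its day 0 level exceeded the day 5 level of the control. Its receptor gene Pdgfrb was lowest at day 3 in the control (377, 140.0 and 199 CPM) and the Cry1 knockdown (267, 193 and 257). In the Cry2 knockdown it fell by day 3 and was nearly level at day 5 (210.4, 109 and 112 CPM). Pdgfa, the other chain, had 54.7, 49.0 and 40.6 CPM in the control.

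Pdgfb passed the test as higher in the Cry1 knockdown, by 1.06 ± 0.17 on the log2 scale (n = 3 days, adjusted p = 0.0203, edgeR). Of 13094 genes tested, 0.932% were called higher and 1.73% lower in that comparison, and of the 25 peaking genes 2 were called higher and 0 lower. With 1 library per genotype and day, these p-values set a genotype difference against its disagreement between days. What the cells of a genotype had in common at all days and what the knockdown did cannot be told apart. The Pdgfb call was lost when any one of the 6 control or Cry1 knockdown libraries was left out (adjusted p up to 0.0774).

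R3hdml (ENSMUSG00000078949, chromosome 2, 163492318 to 163502612, plus strand) was the other. It had 0.312, 14.5 and 9 CPM in control cells, 3.12, 43.8 and 16.3 after Cry1 knockdown, and 0.688, 47.8 and 20.1 after Cry2 knockdown. Both knockdowns thus exceeded the control on every day. The control and the Cry2 knockdown started from 2 and 4 counts. The difference was 1.44 ± 0.31 in the Cry1 knockdown (n = 3 days, adjusted p = 0.0480, edgeR) and 1.43 ± 0.30 in the Cry2 knockdown (adjusted p = 0.151), which did not pass, and both share the control libraries. The Cry1 call was lost in 7 of the 9 fits that each left out a library, with adjusted p up to 0.229. It was kept only without day 0 of either knockdown.

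Adgrg1 (ENSMUSG00000031785, chromosome 8, 94974751 to 95014217, plus strand) encodes an adhesion G protein-coupled receptor, also called GPR56. It had 22.6, 59.2 and 24.4 CPM in control cells, 19.8, 50.1 and 18.4 after Cry1 knockdown, and 61.7, 114 and 46.1 after Cry2 knockdown. The day 0 level of the Cry2 knockdown was about that of the control at day 3, and the peak stood on that raised base, at 1.84 times day 0 (1.61 to 2.11) beside 2.62 times (2.15 to 3.20) in the control. It was the only 1 of the 25 to pass in the Cry2 knockdown, higher by 1.10 ± 0.12 (n = 3 days, adjusted p = 0.0217, edgeR), where 0.0458% of the 13094 genes were called higher and 0.0382% lower. The call was lost without any control library or without day 3 or day 5 of the Cry2 knockdown (adjusted p up to 0.237).

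**Figure D3:**
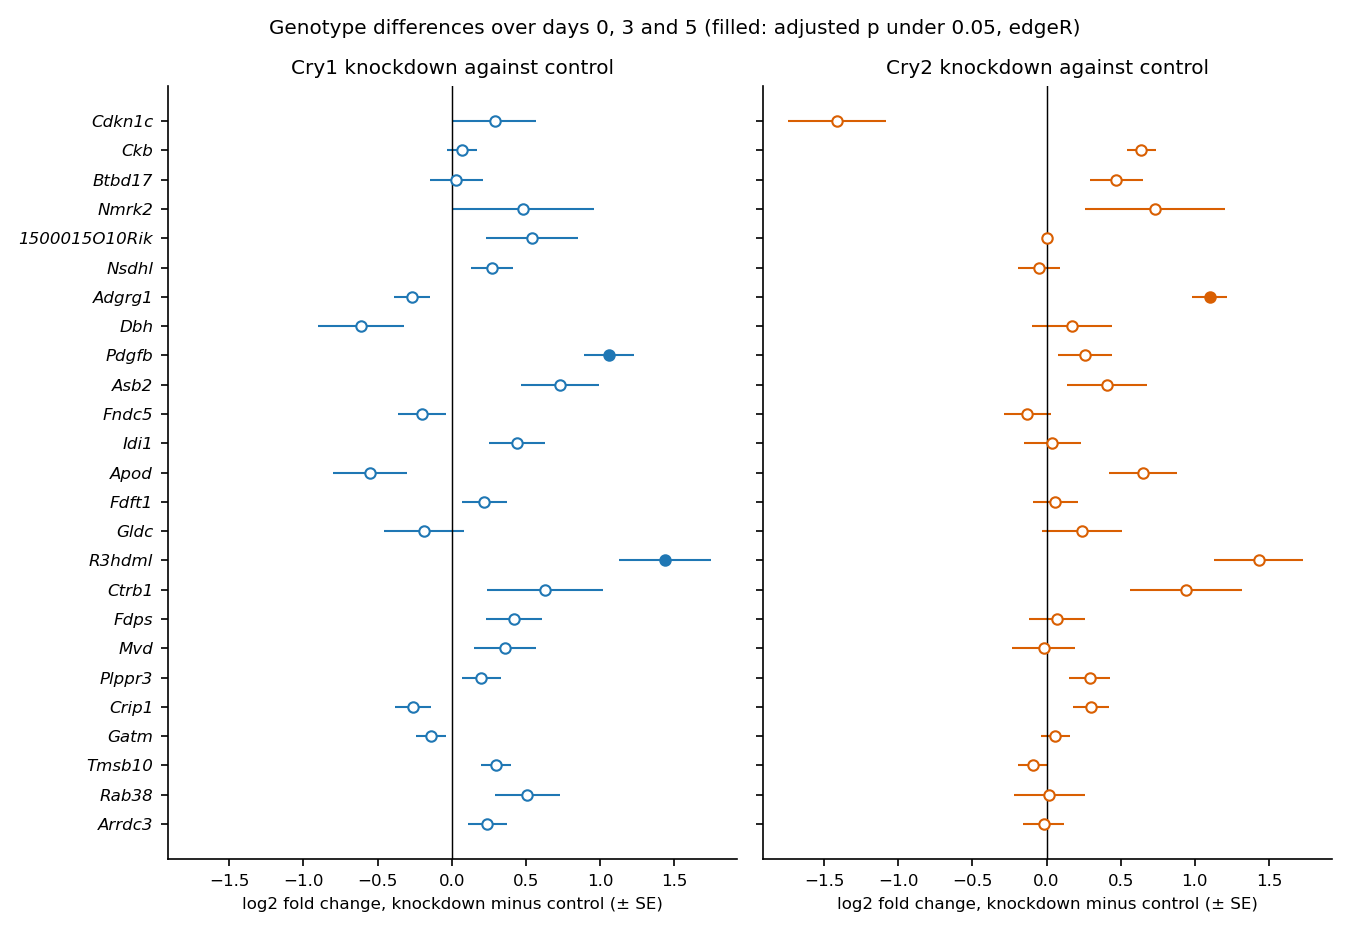
Log2 fold change of the Cry1 knockdown (left) and the Cry2 knockdown (right) against the control over days 0, 3 and 5 (horizontal axis, bars ± SE, edgeR), for the 25 genes in the order of their smallest day 3 ratio. Filled points are the 3 calls, Pdgfb at 1.06 and R3hdml at 1.44 on the left and Adgrg1 at 1.10 on the right, and 1500015O10Rik has no bar on the right because its value rounds to 0.

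Over all 25 genes, the fitted difference was above 0 for 18 in the Cry1 knockdown (median 0.27, beside 0.01 over all genes tested) and for 19 in the Cry2 knockdown (median 0.17, beside -0.00). An unadjusted p under 0.05 was reached by 6 of 25 in the Cry1 knockdown, beside 19.0% of all genes, and by 8 of 25 in the Cry2 knockdown, beside 12.2%. At day 3 the highest level belonged to the Cry1 knockdown in 12 genes, the Cry2 knockdown in 11 and the control in 2, Fndc5 and Gatm. The lowest level belonged to the Cry1 knockdown in 10 genes, the control in 9 and the Cry2 knockdown in 6. The same counts over all genes are not given here. The highest genotype was at the median 1.63, 1.57 and 1.69 times the lowest at days 0, 3 and 5, beside 1.21, 1.24 and 1.22 over the 9753 genes. Several of the genes rest on few counts at day 0, and no test of this spread was made.

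The size of the day 3 excess did not pass a test of difference from the control for any of the 25 genes in either knockdown (0 of 25 in each, edgeR). All genes together gave 0.183% called in the Cry2 knockdown and 0.0229% in the Cry1 knockdown, in either direction. At an unadjusted p under 0.05 there were 0 and 1 of the 25 (Gatm), and DESeq2 also called 0 and 0. Genes whose peak was lost or strongly reduced in a knockdown could not be among the 25, since the rule asks for the peak in every genotype, and so these counts are a description and not a test of the peak's dependence on the knockdowns. That fit also leaves 2 residual degrees of freedom, so a p above the threshold does not show that the peaks were of equal size.

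Fndc5, Ctrb1, Dbh, 1500015O10Rik, Apod and Plppr3 encode further secreted or membrane proteins. Fndc5 (ENSMUSG00000001334, chromosome 4, 129136999 to 129144593, plus strand), the precursor of irisin, had 2.03, 37.6 and 21.0 CPM in control cells, 3.12, 32.9 and 15.1 after Cry1 knockdown, and 2.41, 33.0 and 18.9 after Cry2 knockdown. At day 3 the 3 genotypes lay within 32.9 to 37.6 CPM. The level at day 5 was still 10.4, 4.83 and 7.84 times that of day 0 in the same order.

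Ctrb1 (ENSMUSG00000031957, chromosome 8, 111686519 to 111691010, minus strand) encodes chymotrypsinogen B, a digestive protease precursor best known from the pancreas. It had 3.27, 40.2 and 20.5 CPM in control cells, 10.3, 53.4 and 24.0 after Cry1 knockdown, and 2.24, 79.3 and 49.9 after Cry2 knockdown. The Cry2 knockdown was thus lowest at day 0 and highest afterwards, and the difference from control cells did not pass (0.94 ± 0.38, n = 3 days, adjusted p = 0.369, edgeR). Its promoter was 1 of 2 among the 19, with that of Idi1, to hold CAGCTG. That E-box is one that myogenic factors bind, and 14.2% of the other genes at 5 CPM or more had it. It was found in 25.7% of the 265 matched genes that reached 1.5 times day 0 at day 3 and then stayed within 1.5-fold at day 5 in every genotype.

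Dbh (ENSMUSG00000000889, chromosome 2, 27165233 to 27183200, plus strand), dopamine beta-hydroxylase, the enzyme that makes noradrenaline, had 1.4, 16.2 and 5.65 CPM in the control. It had 1.09, 8.93 and 4.48 after Cry1 knockdown and 0.688, 16.7 and 9.09 after Cry2 knockdown. The Cry1 knockdown was below the control on 3 of 3 days, by an amount that did not pass (-0.61 ± 0.29, n = 3 days, adjusted p = 0.292, edgeR). 1500015O10Rik (ENSMUSG00000026051, chromosome 1, 43730602 to 43742578, plus strand), also named Ecrg4, a small secreted peptide precursor, started from 3, 3 and 1 counts. It had 5.28, 8.43 and 7.19 CPM at day 3 and 2.82, 3.98 and 2.14 at day 5 in the control, the Cry1 knockdown and the Cry2 knockdown. Its ratios to day 0 of 11.3 (3.53 to 57.6), 18 (5.82 to 90.2) and 41.8 (7.01 to 1698) have wide intervals for that reason.

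Apod (ENSMUSG00000022548, chromosome 16, 31296192 to 31314808, minus strand), apolipoprotein D, a secreted lipid carrier, had 2.81, 13.4 and 4.76 CPM in control cells, 2.19, 7.11 and 4.31 after Cry1 knockdown, and 3.61, 18 and 10.9 after Cry2 knockdown. It was lowest in the Cry1 knockdown and highest in the Cry2 knockdown on every day. Neither difference passed (-0.55 ± 0.25, adjusted p = 0.276, and 0.65 ± 0.23, adjusted p = 0.312, edgeR, n = 3 days). The sum of the 4 fibroblast markers, most of it Dcn, was also lowest in the Cry1 knockdown on every day (29.2, 182 and 338 CPM, beside 45.4, 447 and 814 in the control and 47.0, 511 and 682 in the Cry2 knockdown). The single markers differed. Lum, like Dcn, was lowest there at days 3 and 5. Pdgfra was highest there at those days (10.3 and 21.4 CPM, beside 9.73 and 18.2 in the control), and Col15a1 at day 5 (11.1 CPM, beside 6.88). Any part of fibroblast-like cells in the level of Apod was not tested. Plppr3 (ENSMUSG00000035835, chromosome 10, 79860475 to 79874634, minus strand), a membrane protein related to lipid phosphatases, had 14.3, 44.2 and 18.7 CPM in control cells, 17.5, 41.2 and 26.5 after Cry1 knockdown, and 17.7, 46.5 and 28.0 after Cry2 knockdown. Its exons overlap those of Ptbp1 and Prtn3 over 9.41% of their bases. Ptbp1 was highest at day 0 in each genotype (332, 122 and 106 CPM in the control) and did not follow it.

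Asb2 (ENSMUSG00000021200, chromosome 12, 103321142 to 103356001, minus strand) is the substrate-recognition subunit of a ubiquitin ligase that targets filamins for degradation in differentiating muscle. It had 0.624, 23.4 and 12.5 CPM in control cells, 2.66, 36.4 and 18.2 after Cry1 knockdown, and 0.344, 31.5 and 17.8 after Cry2 knockdown. The rise from day 0 was steep, at 37.5 times (14.3 to 140) in the control, 13.7 times (8.36 to 23.9) in the Cry1 knockdown and 91.6 times (24.9 to 763) in the Cry2 knockdown, whose day 0 level is 2 counts. Its promoter, printed above, held the single CArG box among the 19 (1.5% of the other genes) 64 to 55 bases before the start, and the single CACGTG E-box, the type that the clock factors CLOCK and BMAL1 bind (10.5% of the other genes), 23 to 18 bases before it.

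Tmsb10 and Crip1 were the most abundant of the 25. Per kilobase of exon, Tmsb10 had a mean of 1059.8 CPM at day 3, Crip1 215, Ckb 154 and Gatm 113, while Gldc, the lowest, had 1.37. Tmsb10 (ENSMUSG00000079523, chromosome 6, 72957347 to 72958748, minus strand), a thymosin that sequesters actin monomers, had 804, 1240.1 and 736 CPM in control cells, 808, 1651 and 1011 after Cry1 knockdown, and 733, 1166 and 716 after Cry2 knockdown. Its intervals were narrow, from 1.49 to 1.60 for the control's day 3 to day 0 ratio of 1.54. Other genes share 50-base words over 43.5% of its longest transcript, so its counts may be split with copies. Crip1 (ENSMUSG00000006360, chromosome 12, 113146316 to 113153879, plus strand), a small LIM-domain protein, had 287, 445 and 182 CPM in control cells, 205, 387 and 172 after Cry1 knockdown, and 269.9, 641 and 254 after Cry2 knockdown. With Gatm, it was 1 of the 2 genes at or below day 0 at day 5 in every genotype.

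Btbd17 (ENSMUSG00000000202, chromosome 11, 114791217 to 114795945, minus strand), a BTB-domain protein, had 3.43, 16.3 and 6.88 CPM in control cells, 3.75, 15.4 and 7.46 after Cry1 knockdown, and 6.19, 21.8 and 8.19 after Cry2 knockdown, and was one of the 3 genes that kept a ratio of 2 throughout. Arrdc3 and Rab38 sat at the edge of the rule. Arrdc3 (ENSMUSG00000074794, chromosome 13, 80883384 to 80896042, plus strand), an arrestin-like adaptor of receptor trafficking, had 19.6, 30.8 and 15.9 CPM in control cells, 18.9, 38.0 and 22.1 after Cry1 knockdown, and 15.8, 30 and 19.8 after Cry2 knockdown. Rab38 (ENSMUSG00000030559, chromosome 7, 88430273 to 88491572, plus strand), a small GTPase of lysosome-related organelles, had 3.43, 5.28 and 3.00 CPM, 4.06, 8.27 and 4.64, and 2.92, 5.50 and 3.56 in the same order. Its smallest day 3 library held 26 counts.

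The values at the edge were close. Just inside, the smallest ratio was 1.52 for Arrdc3 and 1.54 for Rab38 and Tmsb10. Just outside, it was 1.49 for Sertad3, 1.48 for Inka2 and 1.47 for Slc27a3. By counting error alone, all 6 lower bounds exceeded 1 in 21 genes and exceeded 1.5 in 5, and at least 1 lower bound was at or under 1 in 1500015O10Rik, Apod, Gldc and Rab38. Scaling by TMM (which scales to the bulk of genes rather than to the library total) shifted the ratios by -0.08 to 0.12 on the log2 scale. It gave 24 genes, of which 21 were among the 25, with Arrdc3, Gatm, Plppr3 and Rab38 lost.

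**Figure D4:**
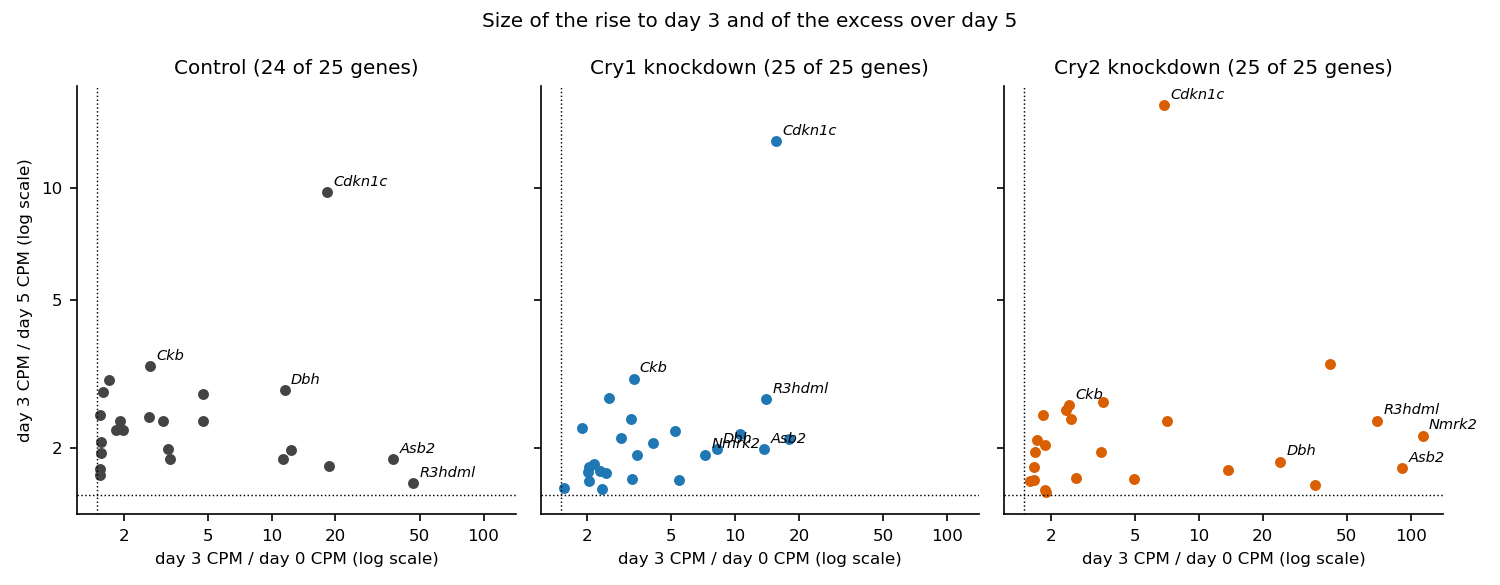
Ratio of day 3 to day 0 CPM (horizontal axis, log scale) against ratio of day 3 to day 5 CPM (vertical axis, log scale) for the 25 genes, 1 panel per genotype, with dotted lines at the 1.5-fold of the rule. Nmrk2 is not drawn in the control, where it had 0 counts at day 0. Cdkn1c lies alone at the top in each genotype, at 9.72, 13.3 and 16.6 times day 5, and Asb2 and R3hdml, both with steep rises, stay under 3 times day 5.

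Among the 9753 genes, which had to reach 5 CPM at day 3 in every genotype, the rule was met by 199 after Cry2 knockdown, 123 after Cry1 knockdown and 124 in control cells. Of these, 55 met it in both knockdowns, 43 in the control and the Cry2 knockdown, and 32 in the control and the Cry1 knockdown, each count including the 25 genes by definition. These counts only unfold the rule and support nothing about the genes. The genes shared by the control and the Cry1 knockdown, 32, are 25.8% of the former and 26.0% of the latter.

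The other lists, among them those of the sarcomere (0 of 60 genes at 5 CPM or more), the extracellular matrix (0 of 59) and the clock (0 of 19), held none of the 25. Since 0.256% of all 9753 genes met the rule, a count of 0 in lists of this size is near the background and is not a result about them. Of the 60 sarcomere genes, 14 (23.3%) reached 1.5 times day 0 at day 3 and stayed within 1.5-fold at day 5 in every genotype, beside 3.91% of all 9753. Beside Cdkn1c, Pdgfb, Ckb and the 5 sterol genes, 17 of the 25 belonged to none of the 23 lists.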

How the data were processed

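PolyA RNA was sequenced in 9 libraries. Per the submitters' processing notes, CASAVA 1.8, HISAT2 2.0.2 and featureCounts 1.4.6 (Subread) were used with mm10. The authors deposited whole-number counts per Ensembl gene, with no normalization. Per the labels, TruSeq RNA v2 libraries were made, a kit without strand marking. Symbols, gene types and mm10 coordinates came from GENCODE vM21, in which 419 of 47728 deposited IDs had no entry.

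CPM is the count divided by the library total, on the usual scale of that unit. Ratio intervals are exact conditional binomial (Clopper-Pearson). Genotypes were compared in edgeR 4.0.16 (R 4.3.3), by the quasi-likelihood F test on TMM-normalised counts of the 13094 genes kept by filterByExpr. The additive fit of day and genotype over 9 libraries leaves 4 residual degrees of freedom. The day 3 excess fit adds a genotype term for day 3 and leaves 2. p-values were adjusted by Benjamini-Hochberg over all tested genes, with a threshold of 0.05. SE was taken as the size of the log2 fold change over root F. The fits were tested on simulated data. Alternatives were RLE factors, other filters, DESeq2 1.42.0, other terms, each library left out, and other forms of the rule. Python 3.11.15, pandas 2.3.3, scipy 1.17.1 and matplotlib 3.10.9 did the rest.

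The members and the 23 gene lists were chosen with earlier results of these data known. Named genes were all list members, the largest and most abundant peaks, called members, and the 3 genes on each side of the 1.5-fold limit, and the remaining genes of the 25 were added. Overlap was counted on exon bases, and shared sequence as 50-base words of the longest transcript. Motifs were searched in the 250 bases before RefSeq starts (GRCm38.p6). Values of some listed genes are not reported here.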

Additional observations from a re-analysis of the deposited data

How the results depend on the processing

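The count of 25 genes became 133 with a lower fold limit and 3 with a fold of 2, and 62 without the control and 46 without the Cry1 knockdown in the rule. The other forms gave 19 to 35 genes (TMM scaling, a total without mitochondrially encoded genes, no Cry2 knockdown libraries, day 3 minimums of 1 and 10 CPM, and, added after the data were seen, all gene types, which gave 27). The 1 member called in the Cry2 knockdown became 5 without a filter on low counts (Cdkn1c, R3hdml, Ckb and Ctrb1 added), 3 with DESeq2 (R3hdml and Ckb added), 0 without a day term, 0 with only the 6 libraries compared and 0 to 2 with a library left out. The 2 members called in the Cry1 knockdown became 3 without a filter on low counts (Asb2 added), 3 with members chosen by TMM scaling (Gm7361 added), 0 without a day term, 1 (Pdgfb) with only the 6 libraries compared and 0 to 2 with a library left out, the 2 without day 0 of the Cry1 knockdown being R3hdml and Mvd. Directions of these 3 calls did not change in any alternative run. Members with another day 3 excess numbered 0 under each alternative that could be fitted, and leaving out a day 3 library was not run because the term cannot then be estimated. No paired analysis was possible because each genotype and day has 1 library, and the day term already matches libraries of the same day. Depth limits most the genes whose smallest day 3 count was low, Rab38 (26 counts), Cdkn1c (28), 1500015O10Rik (32), Gldc (41) and Apod (43). No genotype and day was repeated, so no value here has a check between replicate libraries.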
